A study of Mus musculus with 24 samples.

Results

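The lysyl oxidase family comprises 5 genes in the mouse, *Lox*, *Loxl1*, *Loxl2*, *Loxl3* and *Loxl4*, and its members were taken as the array features annotated to one of these symbols. Of 45037 non-control probe sets, the sets of short oligonucleotides that each report on a transcript, 10 named a member and 8 of them named a member only. For each gene the probe set with the highest mean signal stood for the gene, and the others served as a check. This gave 4 genes that could be tested (*Lox*, *Loxl1*, *Loxl3* and *Loxl4*) among 14763 genes in all. *Loxl2* was represented only by 2 probe sets that also name *Gm21451*, the gene next to it in the RefSeq annotation, so their signal is reported for the pair and not for *Loxl2* alone.

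Lysyl oxidases are secreted copper-dependent amine oxidases. They oxidise lysine side chains of collagen and elastin, and the aldehydes formed then condense into the covalent crosslinks that give fibres their strength and make them resist breakdown. Lox is made as a proenzyme that is cleaved outside the cell by the procollagen C-proteinase Bmp1, and Loxl1 is known for its part in elastic fibre renewal. In the heart these enzymes are associated with the stiffness of scar and interstitial matrix, and fibroblasts are their best known source.

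RNA came from hearts of FVB/N mice of 3 genotypes: nontransgenic (Ntg), dnPI3K, whose cardiac-specific dominant negative transgene lowers the activity of phosphoinositide 3-kinase (PI3K), and caPI3K, whose constitutively active transgene raises it. PI3K is a lipid kinase through which insulin and growth factors drive heart growth. Mice of each genotype were operated on at 4 months of age, with either a sham procedure or a myocardial infarction (MI, in which heart muscle dies for lack of blood supply), and the heart was collected 8 weeks later. All 6 groups received standard chow and held 4 arrays each. The sources used here do not give the transgenes' promoter, the sex of the animals or how much of the RNA came from scar. Hearts were homogenised individually, but whether the 4 arrays of a group are 4 animals is not stated, and p-values then reflect only array-to-array spread, which may be technical. The caPI3K MI samples carry a tag named caPI3K-sham, but their titles and descriptions name MI and were followed.

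The 24 arrays shared a trimmed mean signal of 500.0, and the median signal was 102 to 118 on 23 of them and 150 on dnPI3K MI replicate 1 (replicate numbers follow accession order and only name arrays). Cardiomyocyte genes *Myh6*, *Tnnt2*, *Tnni3*, *Actc1* and *Myl2* lay at or above the 99.8th percentile of every array. On 3 of the 4 caPI3K sham arrays (replicates 1, 2 and 3) Y-linked genes exceeded *Xist*, whereas *Xist* was high on the other 21 arrays. These arrays therefore differ from the caPI3K MI arrays in a sex-linked signal as well as in the operation. Ntg sham replicate 4 stood apart from the other Ntg sham arrays in matrix genes, with a summed signal of 6 activated fibroblast markers of 19374, against a lowest Ntg sham value of 4963. The sham arrays numbered 415 to 418 (replicates 1 and 2 of Ntg sham and of dnPI3K sham) had a brighter upper end than the rest, their 99th percentile of signal running from 18167 to 20369. The lowest of them, dnPI3K sham replicate 2, was close to the highest of the rest, dnPI3K sham replicate 4 at 18060.5. Values without the arrays described above are given beside some of the results where they changed a call or moved a value by over 1.5 times. For the gene lists and the second probe sets these alternatives were added after the values were seen.

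After infarction *Lox*, *Loxl1* and *Loxl3* RNA rose in dnPI3K hearts, *Lox* and *Loxl3* rose in caPI3K hearts, and *Loxl1* and *Loxl3* rose in Ntg hearts. These called rises were 1.58 to 3.62-fold. *Lox* in Ntg hearts (1.97-fold) and *Loxl1* in caPI3K hearts (1.53-fold) were also higher but did not pass the test. *Loxl4* was near background and did not pass the test in any genotype. Changes are given as log2 differences of signal plus a pseudocount of 11.2, which compresses changes of dim genes, with the standard error (SE) from a limma fit over all 24 arrays. A gene was called changed at a Benjamini-Hochberg adjusted p below 0.05 over the 14763 genes. In whole hearts fewer cells of a type and less RNA per cell cannot be told apart. Higher calls made up 0.677% of all genes in Ntg hearts, 4.19% in dnPI3K hearts and 0.853% in caPI3K hearts, and the members called higher were 2, 3 and 2 of 4 in the same order. Lower calls made up 0.0948%, 5.18% and 0.257%, and 0 members were called lower.

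**Figure D1:**
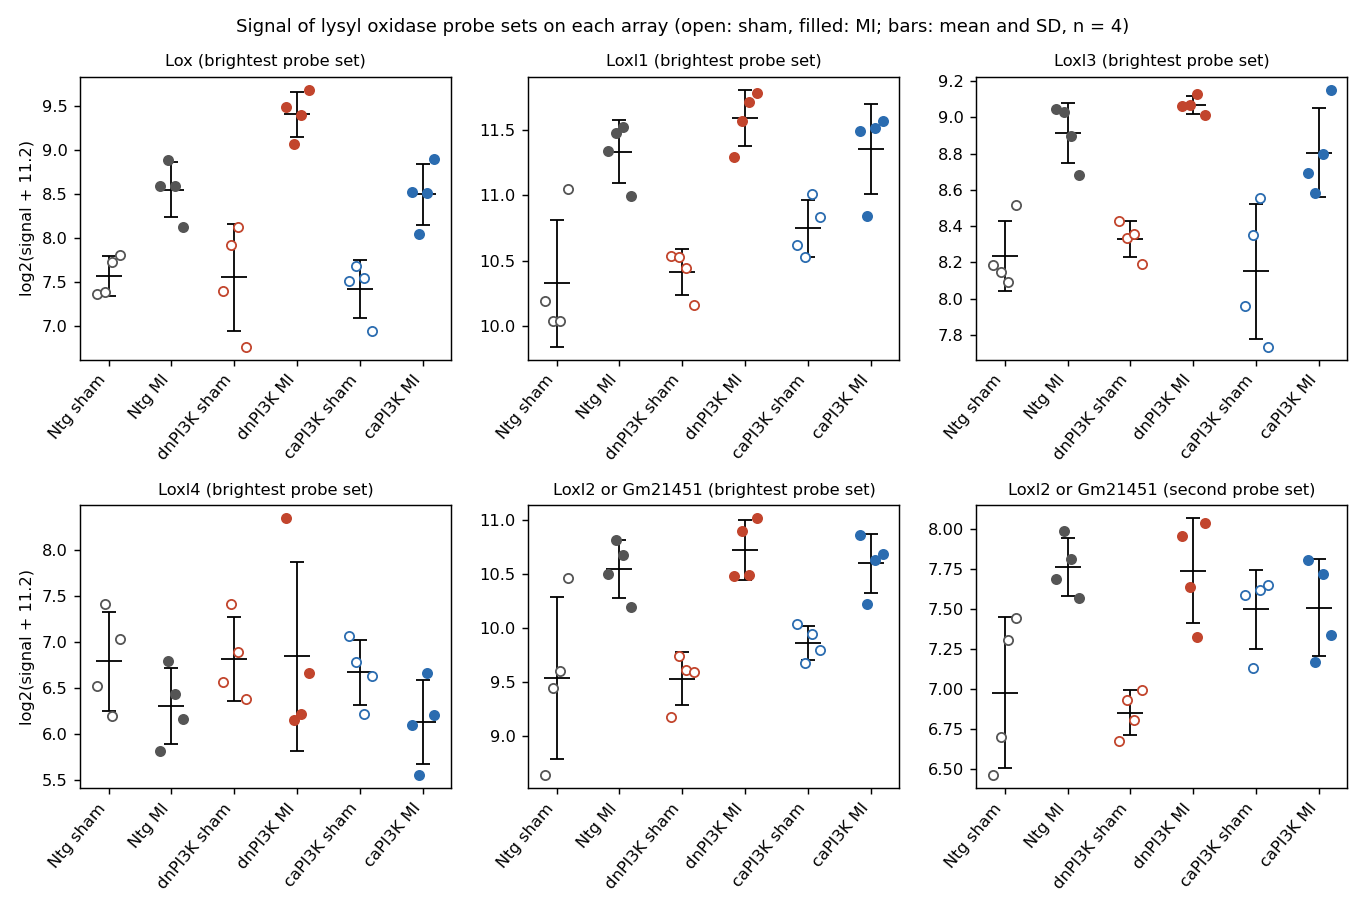
Signal of the 4 testable genes and of the 2 probe sets shared by *Loxl2* and *Gm21451*, as log2(signal + 11.2), in the 6 groups. Each point is an array (open, sham; filled, MI) and the bars give the mean and SD of 4 arrays; for *Lox* all 4 dnPI3K MI arrays, at 527 to 812 signal units, lie above every other array, and for *Loxl4* the groups overlap.

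*Lox* encodes the founding member of the family, a crosslinker of fibrillar collagen and elastin. In Ntg sham hearts its signal was 154, 156, 201 and 213 on the 4 arrays, and in Ntg MI hearts 376, 463, 374 and 269. In dnPI3K sham hearts it was 157, 232, 269 and 97.7, and in dnPI3K MI hearts 709, 527, 662 and 812. In caPI3K sham hearts it was 172, 195, 175 and 112, and in caPI3K MI hearts 358, 253, 353 and 469. In each genotype all MI arrays were above all sham arrays, a separation that 2.22% of all genes showed in Ntg, 6.34% in dnPI3K and 5.09% in caPI3K hearts. The most variable group was dnPI3K sham, in which the highest array was 269 and the lowest 97.7.

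The infarct change of *Lox* was largest in dnPI3K hearts, at 1.86 (SE 0.25, limma adjusted p = 7.06e-05), which is 3.62-fold and placed the gene at rank 21 by increase and rank 11 by p among all 14763 genes. In caPI3K hearts it was 1.07 (SE 0.25, limma adjusted p = 0.0263), or 2.11-fold. In Ntg hearts the change was 0.98 (SE 0.25), or 1.97-fold, with a 95% interval of 0.47 to 1.48, and did not pass the test (limma adjusted p = 0.0576). The Ntg value passed the test without Ntg sham replicate 4 (1.06, limma adjusted p = 0.0197) and without Ntg MI replicate 4 (1.12, limma adjusted p = 0.0481). The caPI3K call was lost when any of sham replicates 1 and 4 or MI replicates 1, 3 and 4 was left out, with limma adjusted p between 0.0530 and 0.121, and when the 3 sham arrays with Y-linked signal were left out together (1.56, limma adjusted p = 0.160, with a single sham array remaining). The dnPI3K call held under each array left out.

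On its brightest probe set the levels of *Lox* put dnPI3K MI hearts first, with a mean log2 level of 9.41 (SD 0.26, n = 4). Ntg MI hearts at 8.55 (SD 0.31, n = 4) and caPI3K MI hearts at 8.50 (SD 0.35, n = 4) came next, and their arrays overlapped. The 3 sham groups followed at 7.57 (SD 0.23, n = 4) in Ntg, 7.56 (SD 0.61, n = 4) in dnPI3K and 7.42 (SD 0.33, n = 4) in caPI3K hearts, all overlapping. Between infarcted hearts *Lox* was lower in caPI3K than in dnPI3K by 0.91 on the log2 scale (log2 difference -0.91, SE 0.25, limma adjusted p = 0.0298), and it was the one member called among the comparisons of genotypes within an operation. In that comparison 1.31% of all genes were called lower. This call was lost without any one of dnPI3K MI replicates 1, 3 and 4 or caPI3K MI replicates 1, 2 and 3, with limma adjusted p between 0.0593 and 0.129. The lowest dnPI3K MI array, at 527, was above the highest Ntg MI array, at 463, and that difference was 0.86 (SE 0.25, limma adjusted p = 0.0594), short of the threshold. In that comparison 0.657% of all genes were called higher. On the second *Lox* probe set neither difference was called. There caPI3K MI against dnPI3K MI was -0.53 (limma adjusted p = 0.675) and dnPI3K MI against Ntg MI 0.29 (limma adjusted p = 0.849). Its dnPI3K MI arrays, at 279 to 390, overlapped those of Ntg MI, at 205 to 342, and caPI3K MI, at 153 to 357.

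A direct test of whether infarction moved *Lox* further in one genotype than in another was not passed. The difference of infarct effects was 0.88 (95% interval 0.16 to 1.59, limma adjusted p = 0.621) for dnPI3K minus Ntg. For caPI3K minus dnPI3K it was -0.78 (95% interval -1.50 to -0.06, limma adjusted p = 0.441), and for caPI3K minus Ntg 0.10 (95% interval -0.62 to 0.81, limma adjusted p = 0.994). With limma, 0 genes of 14763 were called in each of these 3 comparisons, a background of 0%, while 1122, 1501 and 817 genes had an unadjusted p below 0.05 in the same order. *Lox* was among the genes below 0.05 in the first (unadjusted p = 0.0183) and the second (unadjusted p = 0.0338). The sizes depended on single arrays, while none was called under any array left out. The dnPI3K minus Ntg difference was 0.61 to 1.07 with one array left out, lowest without dnPI3K sham replicate 4, and 1.18 (limma adjusted p = 0.549) without arrays 415 to 418. The caPI3K minus dnPI3K difference was -0.52 (limma adjusted p = 0.624) without dnPI3K sham replicate 4 and -0.30 (limma adjusted p = 0.948) without the Y-linked arrays. The caPI3K minus Ntg difference was -0.06 without caPI3K sham replicate 4, 0.25 without caPI3K MI replicate 2 and 0.58 (limma adjusted p = 0.999) without the Y-linked arrays.

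*Loxl1* encodes an enzyme that is bound to elastic fibres and needed for their maintenance. Its signal was 1156, 1036, 1037 and 2108 in Ntg sham hearts and 2585, 2844, 2941 and 2028 in Ntg MI hearts. In dnPI3K hearts it was 1469, 1464, 1380 and 1132 after sham and 2502, 3036, 3355 and 3517 after MI. In caPI3K hearts it was 1558, 1463, 2053 and 1811 after sham and 2868, 1823, 2922 and 3030 after MI. Sham and MI arrays were fully separated in dnPI3K hearts. In Ntg hearts sham replicate 4, at 2108, exceeded MI replicate 4, at 2028, and in caPI3K hearts MI replicate 2, at 1823, lay below sham replicate 3, at 2053.

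*Loxl1* rose by 1.01 (SE 0.18, limma adjusted p = 0.00613) after infarction in Ntg hearts, or 2.01-fold, and by 1.18 (SE 0.18, limma adjusted p = 0.000226) in dnPI3K hearts, or 2.26-fold. In caPI3K hearts the change was 0.61 (SE 0.18, 95% interval 0.23 to 0.99) and did not pass the test (limma adjusted p = 0.110). Without caPI3K MI replicate 2 it was 0.78 and passed (limma adjusted p = 0.0339). The Ntg change was 1.25 (limma adjusted p = 1.33e-05) without Ntg sham replicate 4. It was 0.91 (limma adjusted p = 0.0520) without Ntg sham replicate 2, and 0.79 (limma adjusted p = 0.529) when arrays 415 to 418 were left out, after which Ntg sham is represented by replicates 3 and 4. The infarct effects differed between genotypes by 0.17 (95% interval -0.37 to 0.70) for dnPI3K minus Ntg, -0.40 (95% interval -0.93 to 0.13) for caPI3K minus Ntg and -0.57 (95% interval -1.10 to -0.03) for caPI3K minus dnPI3K. None of the 3 passed the test, with limma adjusted p of 0.924, 0.927 and 0.455. The dnPI3K minus Ntg difference was -0.07 (limma adjusted p = 0.973) without Ntg sham replicate 4, 0.05 without Ntg MI replicate 4, 0.27 without Ntg sham replicate 2 or 3 or dnPI3K MI replicate 1, and 0.50 (limma adjusted p = 0.769) without arrays 415 to 418, so its sign was not settled. The caPI3K minus Ntg difference was -0.64 (limma adjusted p = 0.389) without Ntg sham replicate 4, -0.23 without caPI3K MI replicate 2 and -0.18 without arrays 415 to 418.

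In order of level, *Loxl1* means were 11.59 (SD 0.22, n = 4) in dnPI3K MI, 11.36 (SD 0.34, n = 4) in caPI3K MI and 11.34 (SD 0.24, n = 4) in Ntg MI hearts, with overlapping arrays. The sham means were 10.75 (SD 0.22, n = 4) in caPI3K, 10.41 (SD 0.18, n = 4) in dnPI3K and 10.33 (SD 0.49, n = 4) in Ntg hearts. The difference between caPI3K sham and Ntg sham was 0.42 (SE 0.18, limma adjusted p = 0.380) and was not called. Without Ntg sham replicate 4 this difference was 0.66 and was called (limma adjusted p = 0.0197). In that comparison of sham groups 0.278% of all genes were called, and 3 of the 4 caPI3K sham arrays carried Y-linked signal. The caPI3K sham array without it, replicate 4, read 10.83 on the log2 scale, and the caPI3K sham group ran from 10.53 to 11.01. The part of that signal in the difference was not tested.

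*Loxl3* encodes a member required for normal palate and spine development in mice. Its signal was 280, 272, 262 and 355 in Ntg sham hearts and 517, 511, 465 and 400 in Ntg MI hearts. In dnPI3K hearts it was 333, 311, 317 and 281 after sham and 523, 526, 549 and 505 after MI. In caPI3K hearts it was 237, 315, 365 and 202 after sham and 402, 372, 433 and 557 after MI. In all 3 genotypes each MI array exceeded each sham array, although in caPI3K hearts the gap was narrow, from 365 to 372.

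*Loxl3* was the one member called higher after infarction in all 3 genotypes. Its Ntg and caPI3K calls were near the threshold and were lost among all 33061 probe sets (limma adjusted p = 0.0546 and 0.0580). *Lox* changed more in each genotype, by 0.98, 1.86 and 1.07, and missed the threshold in Ntg hearts only (limma adjusted p = 0.0576). The change of *Loxl3* was 0.68 (SE 0.16, limma adjusted p = 0.0368) in Ntg hearts, 0.74 (SE 0.16, limma adjusted p = 0.00347) in dnPI3K hearts and 0.66 (SE 0.16, limma adjusted p = 0.0396) in caPI3K hearts, or 1.60, 1.67 and 1.58-fold. The differences between these effects were 0.06 (95% interval -0.40 to 0.53) for dnPI3K minus Ntg, -0.02 (95% interval -0.49 to 0.44) for caPI3K minus Ntg and -0.09 (95% interval -0.55 to 0.38) for caPI3K minus dnPI3K; limma adjusted p was 0.969, 0.996 and 0.931. The last pair were 0.39 and 0.33, of the other sign and not called, without the Y-linked arrays, and the first was -0.03 without Ntg sham replicate 4. The Ntg call was lost without any one of sham replicates 1, 2 and 3 or MI replicates 1, 2 and 3 (limma adjusted p between 0.0788 and 0.145) and when arrays 415 to 418 were left out (0.61, limma adjusted p = 0.672). The caPI3K call was lost without any one of sham replicates 1, 2 and 4 or MI replicates 1, 3 and 4 (limma adjusted p between 0.0583 and 0.174). Without the Y-linked arrays the caPI3K change was 1.07, with a single caPI3K sham array remaining. The dnPI3K call held under each array left out.

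The *Loxl3* means were 9.07 (SD 0.05, n = 4) in dnPI3K MI, 8.91 (SD 0.17, n = 4) in Ntg MI and 8.81 (SD 0.25, n = 4) in caPI3K MI hearts. Ntg MI and caPI3K MI arrays overlapped, and so did dnPI3K MI and Ntg MI arrays. The sham means were 8.33 (SD 0.10, n = 4) in dnPI3K, 8.24 (SD 0.19, n = 4) in Ntg and 8.15 (SD 0.37, n = 4) in caPI3K hearts, again with overlap. No comparison of genotypes within sham or within MI passed the test for *Loxl3*.

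*Loxl4* was dim, with a signal above the 40th percentile of its array on 14 of 24 arrays. Its signal ranged from 62.1 to 159 in Ntg sham, 45.1 to 99.4 in Ntg MI, 71.9 to 159 in dnPI3K sham, 59.7 to 314 in dnPI3K MI, 62.8 to 122 in caPI3K sham and 35.6 to 89.8 in caPI3K MI hearts. The highest value, 314, came from dnPI3K MI replicate 1, the array whose median signal was also the highest. Sham and MI arrays overlapped in every genotype. The infarct change was -0.49 (SE 0.41, limma adjusted p = 0.721) in Ntg, 0.03 (SE 0.41, limma adjusted p = 0.979) in dnPI3K and -0.54 (SE 0.41, limma adjusted p = 0.671) in caPI3K hearts. The 95% intervals were -1.34 to 0.36, -0.82 to 0.88 and -1.39 to 0.31 in the same order. Without dnPI3K MI replicate 1 the dnPI3K value was -0.47 (limma adjusted p = 0.527), so the value near 0 rested on that array.

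The 2 probe sets annotated to both *Gm21451* and *Loxl2*, whose product crosslinks collagen IV and fibrillar collagen, were tested among 33061 probe sets. The brighter of them gave 387, 685, 768 and 1397 in Ntg sham and 1437, 1794, 1623 and 1160 in Ntg MI hearts. In dnPI3K hearts it gave 568, 846, 770 and 759 after sham and 1417, 1894, 1427 and 2060 after MI. In caPI3K hearts it gave 1039, 807, 974 and 879 after sham and 1854, 1182, 1573 and 1638 after MI. Sham and MI arrays were separated in dnPI3K and caPI3K hearts, while in Ntg hearts sham replicate 4, at 1397, exceeded MI replicate 4, at 1160.

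The brighter shared probe set rose by 1.01 (SE 0.23, limma adjusted p = 0.0406) in Ntg hearts and by 1.19 (SE 0.23, limma adjusted p = 0.00175) in dnPI3K hearts. In caPI3K hearts its change was 0.74 (SE 0.23, limma adjusted p = 0.170). The dimmer one changed by 0.79 (SE 0.24, limma adjusted p = 0.184) in Ntg hearts and by 0.01 (SE 0.24, limma adjusted p = 0.996) in caPI3K hearts, and it rose by 0.89 (SE 0.24, limma adjusted p = 0.0241) in dnPI3K hearts. Higher calls made up 0.384%, 2.51% and 0.439% of probe sets in Ntg, dnPI3K and caPI3K hearts. In caPI3K sham hearts the dimmer probe set read 182, 129, 186 and 190, and after MI 213, 133, 200 and 150, so that sham and MI overlapped. The change in caPI3K hearts was thus 0.74 on one probe set and 0.01 on the other, and neither passed the test. The dimmer probe set had mean signals of 120, 105 and 172 in Ntg, dnPI3K and caPI3K sham hearts, and 207, 207 and 174 after MI. Its caPI3K sham level differed by 0.52 from Ntg sham and 0.65 from dnPI3K sham, neither called (limma adjusted p = 0.477 and 0.116).

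The Ntg call of the brighter probe set was lost when any of sham replicates 1, 2 and 3 or MI replicates 1, 2 and 3 was left out (limma adjusted p between 0.105 and 0.251, lowest change 0.71 without sham replicate 1), and again when arrays 415 to 418 were left out (0.51, limma adjusted p = 0.943). The dnPI3K call of the dimmer probe set was lost without sham replicate 1, MI replicate 1 or MI replicate 4 (limma adjusted p between 0.0615 and 0.0893) and without arrays 415 to 418 (0.84, limma adjusted p = 0.103). Its Ntg change was called without Ntg sham replicate 4 (0.94, limma adjusted p = 0.0386).

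**Figure D2:**
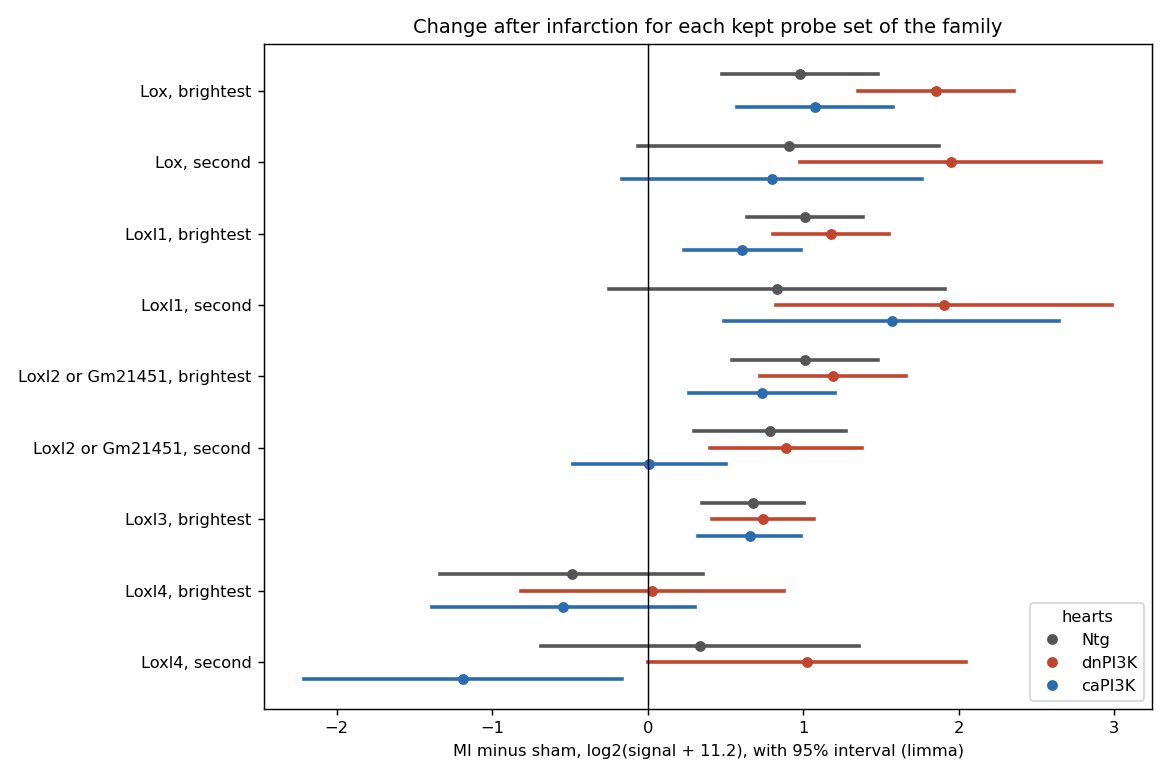
Infarct change (MI minus sham, log2(signal + 11.2)) with its 95% interval from limma, for each of the 9 kept probe sets annotated to a member, by genotype. The brightest *Lox* probe set is at 0.98, 1.86 and 1.07 in Ntg, dnPI3K and caPI3K hearts, all intervals of *Loxl1*, *Loxl3* and the *Loxl2* or *Gm21451* pair on their brightest probe sets lie above 0, and the *Loxl4* intervals are the widest among the probe sets that stand for a gene.

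Other probe sets of the same genes were dimmer and less precise. The second *Lox* probe set changed by 0.91 (SE 0.47, limma adjusted p = 0.542) in Ntg and 0.80 (SE 0.47, limma adjusted p = 0.634) in caPI3K hearts, and rose by 1.95 (SE 0.47, limma adjusted p = 0.0118) in dnPI3K hearts. In dnPI3K hearts sham replicate 1 read 5.23 while the other dnPI3K sham arrays read 130, 219 and 95.8. Without that array the *Lox* rise on this probe set was 1.15 (limma adjusted p = 0.0345), and without arrays 415 to 418 it was 1.10 (limma adjusted p = 0.127). The second *Loxl1* probe set was above the 40th percentile on 9 of 24 arrays, all of them MI arrays (2 in Ntg, 3 in dnPI3K and 4 in caPI3K hearts), so its changes are against sham values at background. It passed the signal filter through MI arrays alone, so its call adds no separate support for a *Loxl1* rise. It changed by 0.83 (limma adjusted p = 0.655) in Ntg and 1.57 (limma adjusted p = 0.222) in caPI3K hearts, and rose by 1.91 (limma adjusted p = 0.0282) in dnPI3K hearts, where the sham arrays read 11.1 to 16.6. This *Loxl1* call was lost without any one of dnPI3K sham replicates 1, 3 and 4 or MI replicates 1 and 4 (limma adjusted p between 0.0571 and 0.118) and without arrays 415 to 418 (limma adjusted p = 0.125). The second *Loxl4* probe set changed by 0.34, 1.02 and -1.19 in Ntg, dnPI3K and caPI3K hearts, with limma adjusted p of 0.894, 0.276 and 0.398. In Ntg hearts its sign was opposite to that of the brightest one, at -0.49. Its infarct effects differed by 0.69 for dnPI3K minus Ntg, -1.52 for caPI3K minus Ntg and -2.21 for caPI3K minus dnPI3K. None was called (limma adjusted p = 0.892, 0.972 and 0.304). On the brightest probe set these differences were 0.52, -0.05 and -0.57, also not called. The third *Lox* probe set had a mean signal of 26.6 and was above the 40th percentile on 0 arrays, so it was not tested.

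In sham hearts none of the 4 members was called between genotypes. The dnPI3K sham against Ntg sham differences were -0.02 for *Lox*, 0.09 for *Loxl1*, 0.09 for *Loxl3* and 0.02 for *Loxl4*, with limma adjusted p from 0.905 to 0.992, where 1.14% of all genes were called. In caPI3K against dnPI3K sham hearts 9.9% of all genes were called, and the member differences were -0.13, 0.33, -0.18 and -0.14 in the same order, with limma adjusted p from 0.317 to 0.899. The *Lox* difference ran from -0.40 to 0.06 with one array left out. Without the Y-linked arrays, with a single caPI3K sham array remaining, the *Lox* and *Loxl3* differences were -0.61 and -0.59. Between caPI3K MI and Ntg MI hearts limma called 0 genes of all tested, with 683 genes at an unadjusted p below 0.05. The member differences there were -0.05 for *Lox*, 0.02 for *Loxl1*, -0.11 for *Loxl3* and -0.17 for *Loxl4*.

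The 3 members that responded varied together across the 24 arrays. Pearson's r of log2 levels was 0.893 between *Lox* and *Loxl3*, 0.843 between *Loxl1* and *Loxl3* and 0.827 between *Lox* and *Loxl1*. These arrays span sham and MI groups, and after each group mean was subtracted r was 0.579, 0.555 and 0.465. *Loxl4* had r of -0.19 to 0.03 with the other members. These values are descriptions of 24 arrays that share groups and scaling, and carry no test.

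The genes with the pattern most like *Lox* over the 24 arrays were *Nupr1*, a stress-induced chromatin protein (r = 0.948, and 0.829 within groups), *Comp*, a cartilage matrix protein made by activated fibroblasts (0.921 and 0.491), *Ccn5*, a matricellular protein (0.903 and 0.604), and *Frzb*, a secreted Wnt antagonist (0.902 and 0.404). For *Loxl1* they were *Anxa5*, a phospholipid-binding annexin (0.941 and 0.870), *Adcy7*, an adenylyl cyclase (0.941 and 0.760), *Col5a1*, a fibril-nucleating collagen chain (0.940 and 0.792), and *Pcolce*, an enhancer of procollagen cleavage (0.936 and 0.732). For *Loxl3* they were *Nupr1* (0.894 and 0.542), *Lox* itself, *Col5a2*, a partner chain of *Col5a1* (0.892 and 0.516), and *Ccn5* (0.887 and 0.536). The leading genes for *Loxl4* were *Taf1b*, *Cpsf1*, *Trpc4ap* and *Trim24*, with lower r over the 24 arrays of 0.785, 0.738, 0.721 and 0.706. Within groups their r was 0.779, 0.771, 0.685 and 0.662. *Loxl4* was near background and its highest level, 8.34, came from dnPI3K MI replicate 1. How far these r values rest on that array was not tested. *Nupr1* and *Ccn5* thus stood among the 4 nearest genes of both *Lox* and *Loxl3*.

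Genes of the enzymes' substrates also rose after infarction, with counts in Ntg and dnPI3K hearts that depended on the arrays that stood apart. For this list and those below, higher calls made up 0.677%, 4.19% and 0.853% of all genes in Ntg, dnPI3K and caPI3K hearts. Lower calls made up 0.0948%, 5.18% and 0.257%. Of 9 measured fibrillar collagen genes, 3 rose in Ntg, 5 in dnPI3K and 1 in caPI3K hearts, 0 fell, and the median change was 0.93, 1.11 and 0.80 against a median over all genes between -0.005 and 0.010. Without Ntg sham replicate 4 the Ntg count of collagens was 5, and without arrays 415 to 418 the Ntg and dnPI3K counts were 0 and 3. Without the Y-linked arrays a single caPI3K sham array remained, so caPI3K counts without them are not given for this list or those below. *Col5a2* rose in all 3 genotypes, by 1.08, 1.41 and 0.99. *Col3a1*, the chain of collagen III, rose by 1.11 in Ntg and 1.34 in dnPI3K hearts and had a value of 0.96 in caPI3K hearts (SE 0.25, limma adjusted p = 0.0602). *Col1a2*, a chain of collagen I, rose by 0.93 and 1.11 in the same pair and was at 0.78 in caPI3K hearts (limma adjusted p = 0.0531). *Col1a1* and *Col5a1* rose in dnPI3K hearts, by 1.36 and 0.80, and had values of 1.25 and 0.61 in Ntg and 0.96 and 0.43 in caPI3K hearts. *Col1a1*, *Col1a2* and *Col3a1* also belong to the fibroblast marker list described last.

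Among 15 measured genes of the elastic fibre and its microfibril scaffold, 4 rose in Ntg, 10 in dnPI3K and 6 in caPI3K hearts, with 0, 1 and 1 falling and medians of 0.42, 0.69 and 0.60. The Ntg count was 9 without Ntg sham replicate 4, and the Ntg and dnPI3K counts were 0 and 8 without arrays 415 to 418. *Mfap4*, a microfibril-associated protein that binds elastin and collagen, was above the 40th percentile on 1, 1 and 0 of 4 sham arrays in Ntg, dnPI3K and caPI3K hearts and on all 4 arrays of each MI group. Its mean signal was 157, 111 and 18.3 after sham and 1037, 1542 and 741 after MI. The change of *Mfap4* was 4.12, 4.59 and 4.69 (SE 0.71 each) and was called in every genotype, but against sham values near background its size depends on the pseudocount. *Mfap4* also passed the signal filter only because of its MI arrays. Its calls are included in the list counts above and add no separate support for a rise. *Mfap5*, another microfibril-associated protein, rose by 1.16, 1.39 and 1.13. *Fbln5*, which tethers lysyl oxidase-like enzymes to elastic fibres, rose by 0.88 in dnPI3K and 0.67 in caPI3K hearts and was at 0.42 in Ntg hearts (limma adjusted p = 0.118). *Ltbp3*, a latent TGF-beta binding protein, rose by 0.63 in Ntg and 0.93 in dnPI3K hearts and was at 0.42 in caPI3K hearts. *Efemp1*, or fibulin-3, moved the other way, at -0.49 in Ntg hearts without a call, and fell by 0.81 in dnPI3K and by 1.49 in caPI3K hearts. *Eln*, the elastin gene itself, is named here after its values were seen, with a rise of 0.79 in dnPI3K hearts (limma adjusted p = 0.0250) and values of 0.07 in Ntg and 0.60 in caPI3K hearts.

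Of 12 measured genes for proteins that process or activate the enzymes, 4 rose in Ntg, 6 in dnPI3K and 4 in caPI3K hearts, 1 fell in dnPI3K hearts, and the medians were 0.59, 0.81 and 0.44. The higher calls were 6 in Ntg hearts without Ntg sham replicate 4. They were 1 in Ntg and 5 in dnPI3K hearts without arrays 415 to 418. *Fmod*, or fibromodulin, a small proteoglycan that binds collagen and lysyl oxidase, rose by 1.28, 1.35 and 1.28 (SE 0.15 each). *Postn*, or periostin, a matricellular protein that promotes Bmp1 action on the Lox proenzyme, rose by 1.77, 1.80 and 1.66 (SE 0.31 each). *Pcolce2*, an enhancer of procollagen cleavage, rose by 0.56, 0.72 and 0.97. *Pcolce* rose by 0.70 and 0.87 in Ntg and dnPI3K hearts and was at 0.50 in caPI3K hearts, and *Pcsk5*, a proprotein convertase, rose by 1.49 in dnPI3K hearts and was at 0.40 and 0.86 in Ntg and caPI3K hearts.

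**Figure D3:**
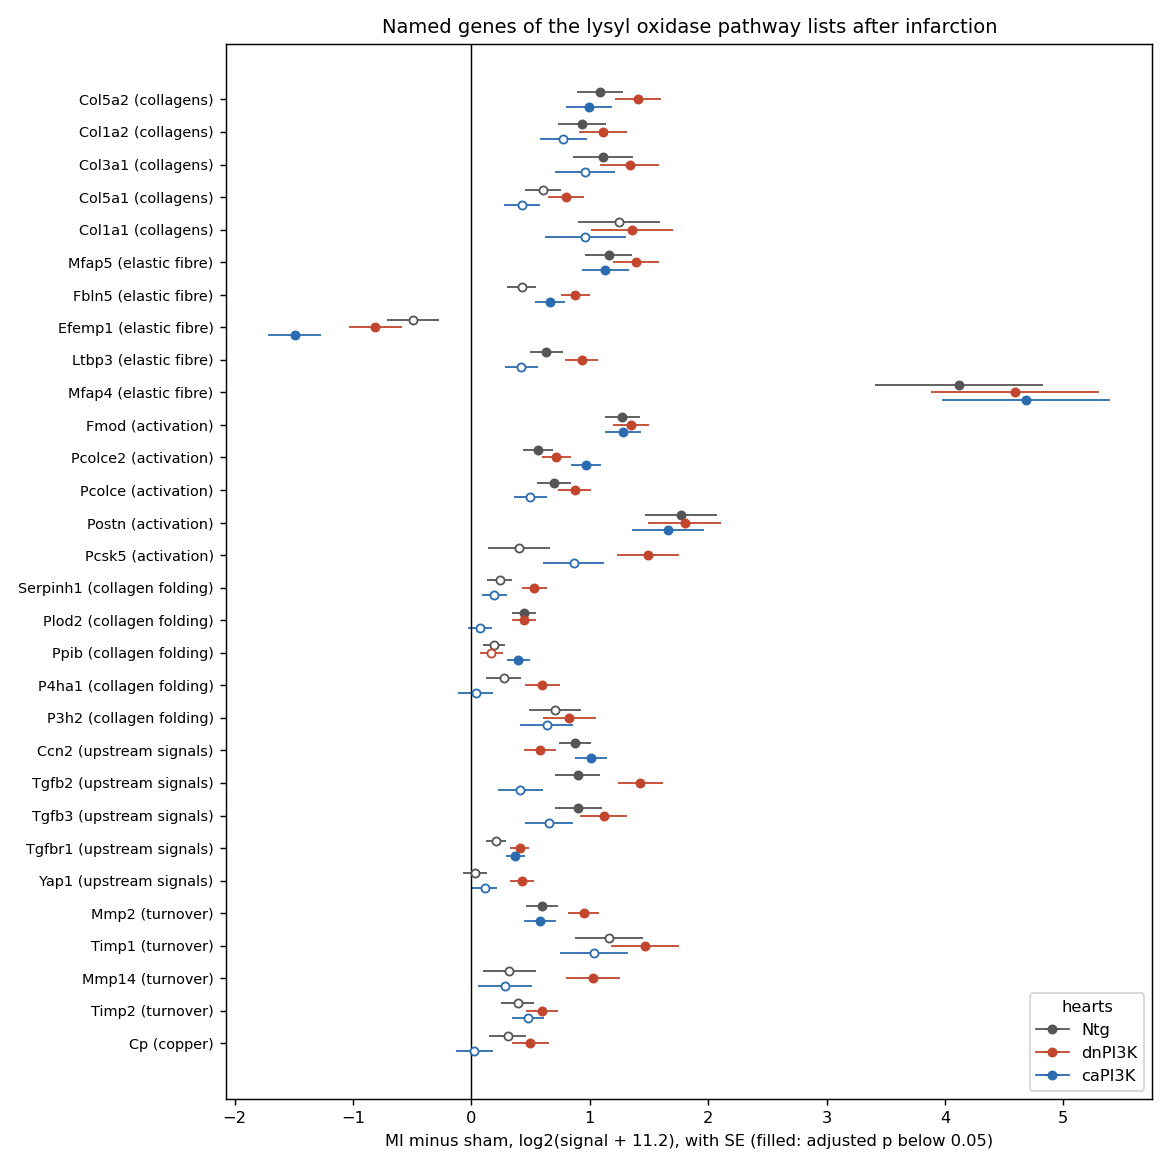
Infarct change (MI minus sham, log2(signal + 11.2)) with its SE for the named genes of the lists of substrates, activators, collagen folding factors, upstream signals, turnover genes and copper supply, in Ntg, dnPI3K and caPI3K hearts. Filled points passed the limma test; *Mfap4*, near background on most sham arrays, is at 4.12 to 4.69, and *Efemp1* is the one named gene to the left of 0 in every genotype.

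Of 16 measured genes that fold collagen or hydroxylate its lysines and prolines before crosslinking, 1 rose in Ntg, 5 in dnPI3K and 1 in caPI3K hearts, with medians of 0.21, 0.30 and 0.21. The Ntg count was 4 without Ntg sham replicate 4, and the Ntg and dnPI3K counts were 0 and 1 without arrays 415 to 418. *Plod2*, the lysyl hydroxylase that directs collagen toward stable crosslinks, rose by 0.44 in Ntg and 0.45 in dnPI3K hearts and was at 0.07 in caPI3K hearts (limma adjusted p = 0.857). *Serpinh1*, the collagen chaperone Hsp47, rose by 0.53 in dnPI3K hearts and was at 0.24 in Ntg and 0.19 in caPI3K hearts. The prolyl hydroxylase *P4ha1* rose by 0.60 in dnPI3K hearts and was at 0.27 and 0.04 in the other two, and *P3h2*, another, rose by 0.83 and was at 0.71 (limma adjusted p = 0.159) and 0.64 (limma adjusted p = 0.186). *Ppib*, a prolyl isomerase, rose by 0.40 in caPI3K hearts and was at 0.19 in Ntg and 0.17 in dnPI3K hearts.

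The copper that lysyl oxidases need is delivered by a set of transporters and chaperones, of which 13 were measured. In this list 0 were called in Ntg and caPI3K hearts, and 1, *Cp*, or ceruloplasmin, rose in dnPI3K hearts by 0.50 and was at 0.31 in Ntg and 0.02 in caPI3K hearts. The *Cp* call was lost in 7 of the alternatives that left arrays out. The medians were 0.05, -0.08 and 0.00. Of 6 measured genes for other copper amine oxidases and transglutaminases, enzymes that also crosslink matrix or oxidise amines, 0 were called in any genotype, with medians of 0.03, 0.03 and 0.08.

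Of 21 measured genes for signals known to act upstream of lysyl oxidase expression, 3 rose in Ntg, 7 in dnPI3K and 2 in caPI3K hearts and 0 fell, with medians of 0.20, 0.24 and 0.17. Without arrays 415 to 418 the Ntg and dnPI3K counts were 1 and 5. *Ccn2*, the TGF-beta target known as CTGF, rose in all 3, by 0.87, 0.58 and 1.01. *Tgfb2* rose by 0.90 in Ntg and 1.43 in dnPI3K hearts and was at 0.41 in caPI3K hearts (limma adjusted p = 0.374), and *Tgfb3* rose by 0.90 and 1.12 and was at 0.66 (limma adjusted p = 0.113). *Tgfbr1*, a TGF-beta receptor, rose by 0.41 in dnPI3K and 0.37 in caPI3K hearts and was at 0.21 in Ntg hearts. *Yap1*, a mechanosensitive coactivator, rose by 0.43 in dnPI3K hearts and was at 0.03 in Ntg and 0.11 in caPI3K hearts. Matrix turnover genes gave 1, 4 and 1 higher calls of 13 measured, with 4 in Ntg hearts without Ntg sham replicate 4 and 0 without arrays 415 to 418. Of all genes 0.677%, 4.19% and 0.853% were called higher in Ntg, dnPI3K and caPI3K hearts, so more calls in dnPI3K hearts were not particular to these lists. *Mmp2*, a gelatinase, rose by 0.60, 0.95 and 0.58. *Timp1*, *Timp2* and *Mmp14*, for a pair of metalloproteinase inhibitors and a membrane-bound metalloproteinase, rose in dnPI3K hearts by 1.47, 0.60 and 1.03. *Timp1* was at 1.16 in Ntg (limma adjusted p = 0.0501) and 1.03 in caPI3K hearts (limma adjusted p = 0.0740), *Timp2* at 0.39 (limma adjusted p = 0.207) and 0.48 (limma adjusted p = 0.0864), and *Mmp14* at 0.32 (limma adjusted p = 0.643) and 0.29 (limma adjusted p = 0.686). Without Ntg sham replicate 4 the Ntg changes of *Timp1* and *Timp2* were called, at 1.52 and 0.55. In Ntg hearts the calls of *Col1a2*, *Col3a1*, *Ltbp3*, *Pcolce*, *Pcolce2*, *Plod2*, *Tgfb2*, *Tgfb3* and *Mmp2* were each lost in 6 or 7 of the alternatives that left arrays out, and in caPI3K hearts those of *Mmp2*, *Ppib* and *Tgfbr1* in 6, 8 and 5. A difference of infarct effects between genotypes was called for none of the named genes in these lists, limma having called 0 genes in those comparisons, as given above for *Lox*.

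Part of the fibroblast markers rose as the members did. Of 12 such markers, 4 rose in Ntg, 5 in dnPI3K and 3 in caPI3K hearts. Without arrays 415 to 418 the Ntg and dnPI3K counts were 0 and 3, and without Ntg sham replicate 4 the Ntg count was 6. Their summed signal was 103607 to 150309 in Ntg sham and 138727 to 152206 in Ntg MI hearts, 125542 to 140914 and 152282 to 178960 in dnPI3K hearts, and 104372 to 118542 and 136060 to 151577 in caPI3K hearts. The highest sum, 178960, lay in dnPI3K MI, the group with the highest *Lox*. *Dcn* and *Pdgfra*, fibroblast genes that were named after their values were seen, changed by 0.10 and 0.34 in Ntg, 0.08 and 0.15 in dnPI3K and 0.16 and 0.32 in caPI3K hearts, none of them called. Of 6 markers of activated fibroblasts 4, 4 and 2 rose (1 in Ntg and 3 in dnPI3K hearts without arrays 415 to 418). Their sums were 4963 to 19374 after sham and 18655 to 24765 after MI in Ntg hearts. They were 6519 to 9667 and 20230 to 31003 in dnPI3K, and 6231 to 8512 and 16829 to 21650 in caPI3K hearts.

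**Figure D4:**
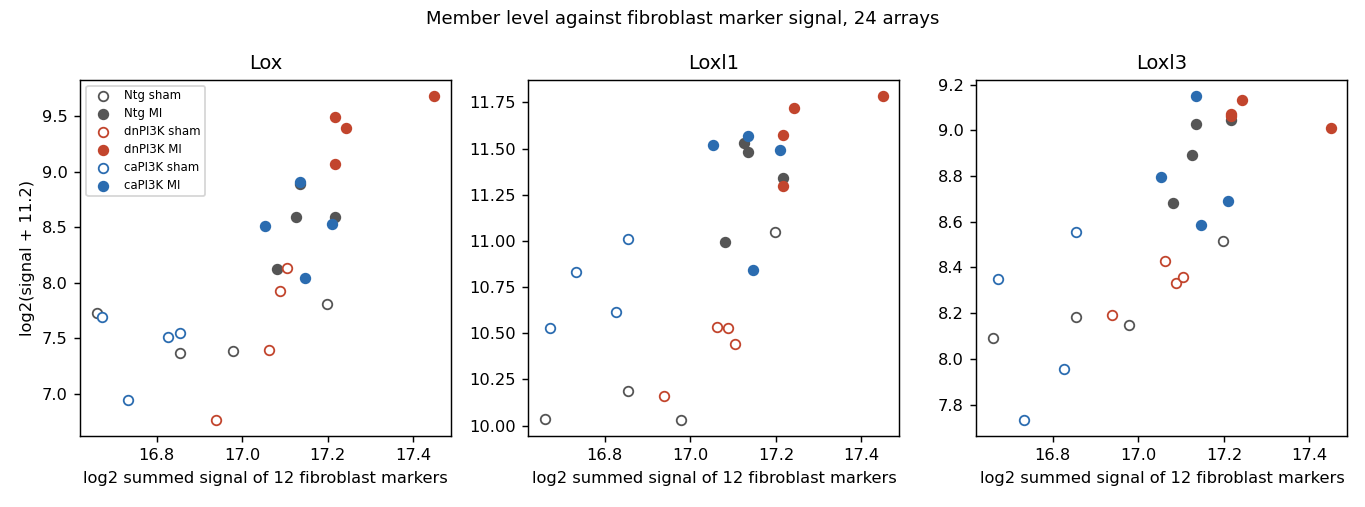
Level of *Lox*, *Loxl1* and *Loxl3*, as log2(signal + 11.2), against the log2 of the summed signal of 12 fibroblast markers on each of the 24 arrays (open, sham; filled, MI; colour, genotype). Arrays with more marker signal had higher levels, with r of 0.763, 0.702 and 0.778, and the dnPI3K MI arrays lie at the upper right for *Lox*.

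Over the 24 arrays the fibroblast sum correlated with *Lox* at r = 0.763, *Loxl1* at 0.702, *Loxl3* at 0.778 and *Loxl4* at -0.02. Within groups these were 0.320, 0.617, 0.335 and 0.142. The part of fibroblast number in the members' changes was not tested. Epicardial and mesothelial markers gave 1, 2 and 1 higher calls of 6, with a summed signal of 567 to 714 in Ntg sham and 818 to 1021 in Ntg MI, 489 to 893 and 1163 to 1899 in dnPI3K, and 594 to 808 and 597 to 973 in caPI3K hearts. Of 10 macrophage markers 0 were called in any genotype, and their sums overlapped between sham and MI in Ntg and dnPI3K hearts, but in caPI3K hearts were 19022 to 24670 after sham and 26290 to 33987 after MI. Of 8 smooth muscle and pericyte markers 0, 1 and 0 rose, of 8 endothelial markers 0 were called, and of 10 cardiomyocyte markers 2 fell in dnPI3K hearts and 0 were called in Ntg and caPI3K hearts. Of 4 markers each, atrial myocytes gave 2, 0 and 1 higher calls, adipocytes 3 lower calls in dnPI3K hearts, and lymphocytes and dividing cells 0. Of all genes 0.677%, 4.19% and 0.853% were called higher and 0.0948%, 5.18% and 0.257% lower in Ntg, dnPI3K and caPI3K hearts. The part of these cell types in the members' changes was not tested.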

How the data were processed

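The values are signal intensities on 24 Affymetrix arrays, deposited by the authors and attributed to MAS5 in the submitters' processing notes. Its version and scaling target are not given. Every array has a trimmed mean of 500.0 (2% trimmed at each end), and no further scaling was applied.

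Of 45101 probe sets 64 controls were left out. In the annotation 34945 probe sets name 1 gene, 932 several and 9160 are not listed. A probe set was kept when above the 40th percentile of its array on at least 4 arrays (33061 kept). The brightest probe set stood for a gene. Gene IDs of 34741 probe sets matched RefSeq GRCm38.p6, and 0 symbols differed.

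Signals were taken as log2(signal + 11.2), the pseudocount being the median signal divided by 10. Means of the 6 groups were fitted with limma version 3.58.1 (R 4.3.3, data.table, version 1.17.8) with an intensity trend and 18 residual degrees of freedom, and p-values were adjusted by Benjamini-Hochberg. Code was tested on simulated data. Precision is limited by the number of arrays. Figures used matplotlib 3.10.9 (Python 3.11.15).

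Samples were grouped by genotype and operation from their labels. Named genes were the members, up to 5 called genes of smallest p in each pathway list, and the 4 genes most correlated with each member. Members and lists were chosen with earlier results of these data known. Alternatives were 2 other pseudocounts, quantile normalization, a filter at the median or none, no trend, a term for array numbers under 1000, every probe set, only the compared groups, and left-out arrays.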

Additional observations from a re-analysis of the deposited data

Results flagged for a closer look

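A gap between the highest or lowest array and the nearest other one, large against the range of its group of 4, was found in 3 of 36 groups, by Dixon's 95% criterion, where chance gives about 1 in 20. *Loxl1* on Ntg sham replicate 4 read 11.05 on the log2 scale, a signal of 2108, against 10.03 to 10.19 on the other 3 arrays. *Loxl1* on caPI3K MI replicate 2 read 10.84, a signal of 1823, against 11.49 to 11.57 on the others. The dimmer probe set of *Loxl2* and *Gm21451* on caPI3K sham replicate 2 read 7.13, a signal of 129, against 7.59 to 7.65 on the others.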

How the results depend on the processing

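No member's called change reversed under an alternative. The 3 members called after MI in dnPI3K hearts numbered 3 under all alternatives. In Ntg hearts the 2 called members became 1 with no intensity trend, with array numbers below 1000 as a term and with every probe set fitted on its own, and 0 with only the compared groups or without arrays 415 to 418, and ranged from 0 to 3 with one array left out. In caPI3K hearts the 2 became 1 with no filter or every probe set, and 0 with no trend or the array number term. They ranged from 0 to 3 with one array left out. The caPI3K sham arrays are numbered 1410 to 1417 and the caPI3K MI arrays 257, 261, 987 and 1123, so in caPI3K hearts that term partly follows the operation. Without the Y-linked arrays a single caPI3K sham array remained, and the *Lox* and *Loxl3* changes were 1.56 and 1.07. For caPI3K MI against dnPI3K MI the 1 called member became 0 with no trend and was 0 to 1 with one array left out. For dnPI3K MI against Ntg MI the 0 became 1 (*Lox*) with a pseudocount of 0.5 times the median signal (0.79, limma adjusted p = 0.0327) or only the compared groups (0.86, limma adjusted p = 0.0371), and for caPI3K sham against Ntg sham 0 to 1 with one array left out. Of the members' log2 changes under alternatives, 1153 kept their side of the threshold, 58 lost a call and 9 gained one.

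Over all genes, the calls after MI went from 114 to between 9 and 672 in Ntg, from 1384 to between 667 and 1849 in dnPI3K and from 164 to between 9 and 404 in caPI3K hearts. Between sham groups they went from 169 to between 41 and 221 (dnPI3K against Ntg), from 41 to between 0 and 412 (caPI3K against Ntg) and from 1461 to between 234 and 2213 (caPI3K against dnPI3K), and between MI groups from 382 to between 190 and 493 (dnPI3K against Ntg) and from 625 to between 392 and 836 (caPI3K against dnPI3K). With one array left out the higher calls in Ntg hearts ranged from 1 to 5 for collagens, 2 to 9 for elastic fibre genes and 2 to 6 for activators, and in dnPI3K hearts from 5 to 5, 7 to 10 and 6 to 7. For caPI3K minus dnPI3K infarct effects 0 became up to 64. The cause was not tested. Groups of 4 arrays and, for *Loxl4*, a signal near background limit the precision. No paired analysis was possible because the labels give arrays numbers of their own and no replicate number shared by groups.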
